A study of Mus musculus with 12 samples.

Results

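The germinal centre and follicular helper genes followed here are 8 genes chosen by name: Bcl6, Fas, S1pr2, Mybl1, Gcsam, Rgs13, Il21 and Cxcr5. They are 8 of 56941 gene IDs in the deposited count table, and all 8 were among the 20034 genes with enough counts to test. RNA of mandibular lymph nodes was compared in 4 groups of 3 libraries. The KO_DTH group came from miR-451a KO mice sensitized with DNFB (1-fluoro-2,4-dinitrobenzene, a hapten that causes contact allergy) and then challenged, and the KO_se group from such mice that were only sensitized. The WT_DTH and WT_se groups came from wild-type mice treated in the same 2 ways. Sensitization was 100 µl of 0.5% DNFB on the abdomen on days 0, 1 and 2, and was shared by all 4 groups. Challenge was 20 µl of 1% DNFB on the left ear on day 9. Challenged nodes were taken 24 h later, on day 10, and the other nodes on day 9, so an effect of challenge cannot be told apart from one of the day of harvest. The labels used here give no strain, age, sex or design of the knockout allele, and leave unsaid whether replicate libraries came from separate animals. The p-values therefore measure the spread between these libraries, which may be technical.

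A germinal centre is a transient structure in the B cell follicle of a lymph node, where activated B cells divide, mutate their antibody genes and are selected. Follicular helper T cells enter the follicle and give these B cells help through CD40 ligand and the cytokine IL-21. Both cell types need the transcriptional repressor Bcl6, and both are guided by Cxcr5, the receptor for the follicular chemokine Cxcl13, which resting B cells carry as well. Fas is a death receptor found at a high level on germinal centre B cells, and S1pr2 is a sphingosine-1-phosphate receptor that holds those cells in the follicle. Mybl1 is a transcription factor of the MYB family used by dividing germinal centre B cells. Rgs13 damps G protein signalling downstream of chemokine receptors, and Gcsam is an adaptor whose human counterpart restrains lymphocyte movement.

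Rgs13 had the largest change of the 8 on challenge in the knockout. Bcl6 was the one gene of the 8 past the threshold used below on challenge in wild type. The regions upstream of these 2 genes are shown for that reason. Each is the 250 bases before an annotated start site, 5′ to 3′ on the strand of the gene, from RefSeq on GRCm38.p6. That build is older than the GRCm39 of the counts, so the sequences were matched by symbol and not by position. Capitals mark matches to the motifs searched on both strands.
Rgs13: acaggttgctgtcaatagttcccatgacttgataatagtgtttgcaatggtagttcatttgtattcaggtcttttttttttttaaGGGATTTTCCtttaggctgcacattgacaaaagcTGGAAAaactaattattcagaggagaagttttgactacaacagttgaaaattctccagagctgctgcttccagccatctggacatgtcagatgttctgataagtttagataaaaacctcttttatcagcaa
Bcl6: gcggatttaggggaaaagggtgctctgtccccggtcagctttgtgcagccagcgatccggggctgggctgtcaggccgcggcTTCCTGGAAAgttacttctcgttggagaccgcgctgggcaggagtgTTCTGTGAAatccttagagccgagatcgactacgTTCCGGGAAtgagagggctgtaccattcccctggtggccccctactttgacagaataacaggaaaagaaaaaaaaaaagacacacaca
The Rgs13 sequence is chr1:144177373-144177622 on the minus strand, upstream of every annotated exon of the gene. It holds a match to the NF-kB motif, GGGA and TTCC with any 2 bases between them, at −165 to −156 from the start site and one to the NFAT motif TGGAAA at −131 to −126. The Bcl6 sequence is chr16:23981284-23981533 on the minus strand, ahead of an internal start site and within an intron of the longer transcript. It holds 3 matches to the STAT motif TTCNNNGAA, at −168 to −160, −122 to −114 and −88 to −80, the first of which overlaps a match to TGGAAA. The table holds another Bcl6 window, ahead of the start site of the longer transcript (chr16:23988853-23989102, not shown), with 1 match to TTCNNNGAA at −118 to −110. Of 32851 windows of this length in the RefSeq table, 7.02% held a match to TTCNNNGAA, 1.21% one to the NF-kB motif and 18.6% one to TGGAAA. Of the 8 genes, 6 had a window in that table, and none of their 7 windows held the octamer ATGCAAAT, which 1.6% of all windows held. A match is a description of the letters and not a bound site.

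Libraries held 36946696 to 58405576 counts. Mir451a was not analysed here, which leaves the genotype labels unchecked by the deleted gene. Genes of the salivary gland, which lies against this node, took 4.17 to 9.57% of counts in KO_DTH, 2.85 to 6.87% in KO_se, 2.08 to 3.38% in WT_DTH and 7.04 to 14.5% in WT_se. Mature B cell genes were present in all libraries, with a summed level over 12 genes of 2780 to 3820 CPM in KO_DTH, 2750 to 3920 in KO_se, 3090 to 3900 in WT_DTH and 2050 to 2560 in WT_se. CPM here is counts scaled to library size with TMM factors. The 12 T cell genes summed to 1700 to 1910 CPM in KO_DTH, 2050 to 2490 in KO_se, 1600 to 2070 in WT_DTH and 2560 to 3100 in WT_se. No gene of the B cell or T cell list was at 0 in any library. In whole nodes, fewer cells of a type and less RNA per cell cannot be told apart.

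**Figure D1:**
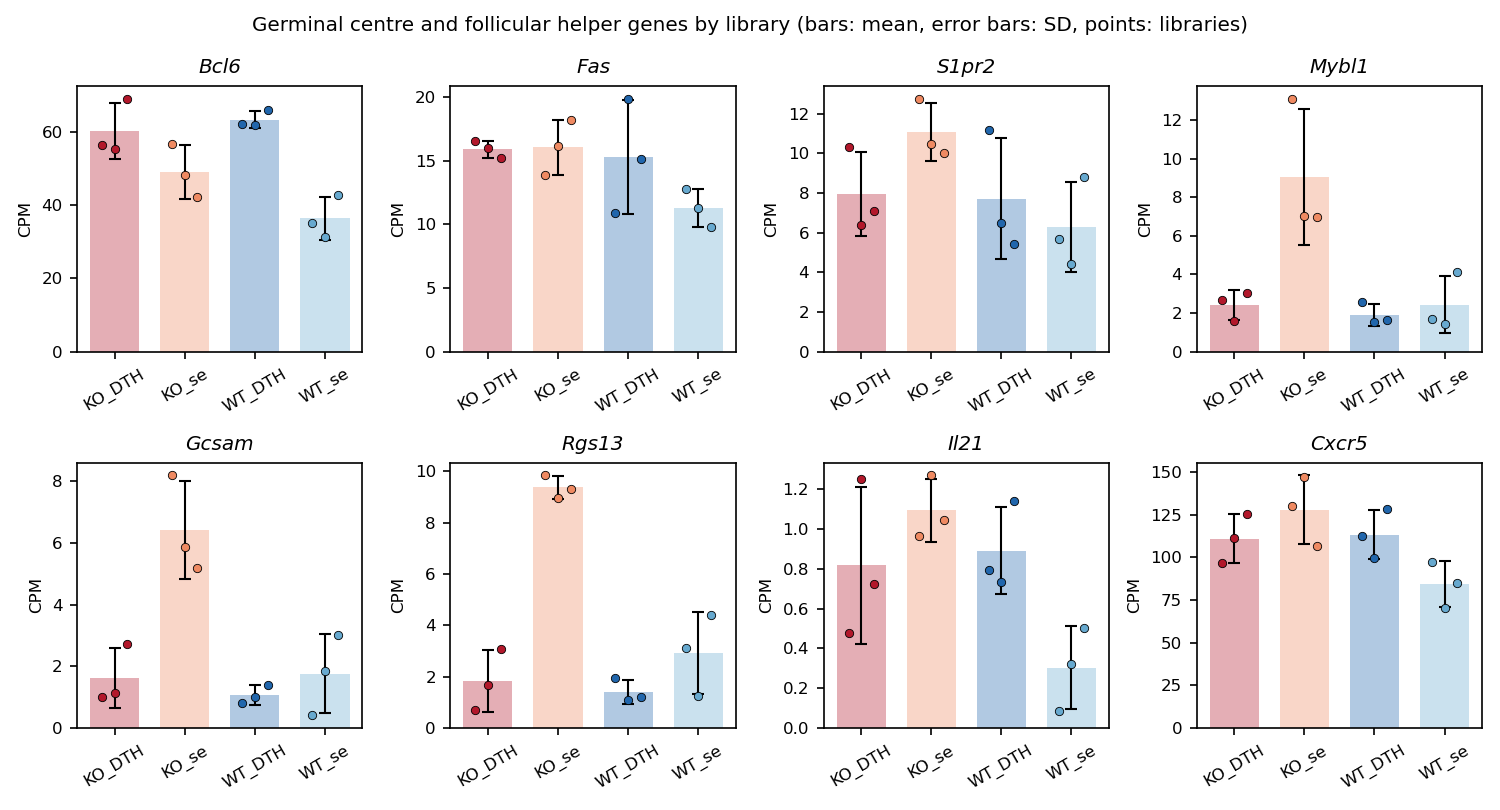
Level of each of the 8 genes in CPM (counts scaled to library size, vertical axis from 0) in the 12 libraries, by group from left to right KO_DTH, KO_se, WT_DTH and WT_se. Points are libraries, bars the group mean and error bars the SD; the 3 KO_se libraries lie above all 9 others for Mybl1, Gcsam and Rgs13.

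Among the germinal centre genes, Mybl1, Rgs13 and Gcsam had their highest level in the sensitized knockout. Mybl1 (ENSMUSG00000025912) had 2.67, 1.57 and 3.04 CPM in KO_DTH, 13.1, 7.02 and 6.99 in KO_se, 2.55, 1.52 and 1.65 in WT_DTH and 1.70, 1.45 and 4.12 in WT_se. Every KO_se library stood above every other library, and the other 3 groups overlapped. Rgs13 (ENSMUSG00000051079) had 0.697, 1.69 and 3.09 CPM in KO_DTH, 9.85, 8.97 and 9.30 in KO_se, 1.96, 1.08 and 1.23 in WT_DTH and 3.11, 1.23 and 4.41 in WT_se. The KO_se libraries were close to each other and apart from the other 9. Gcsam (ENSMUSG00000022659) had 0.995, 1.13 and 2.72 CPM in KO_DTH, 8.19, 5.85 and 5.17 in KO_se, 0.796, 1.01 and 1.41 in WT_DTH and 0.432, 1.85 and 3 in WT_se. The KO_se libraries were again the highest 3 of the 12, while WT_se spread from the lowest value to the fourth library from the top.

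S1pr2 and Fas varied less. S1pr2 (ENSMUSG00000043895) had 10.3, 6.37 and 7.11 CPM in KO_DTH, 12.8, 10.4 and 10.02 in KO_se, 11.2, 6.50 and 5.45 in WT_DTH and 5.70, 4.39 and 8.81 in WT_se. KO_se lay above WT_se with no overlap, and overlapped both challenged groups. Fas (ENSMUSG00000024778) had 16.5, 16.01 and 15.2 CPM in KO_DTH, 13.9, 16.1 and 18.2 in KO_se, 10.9, 19.9 and 15.1 in WT_DTH and 12.8, 11.3 and 9.76 in WT_se. WT_se was below both knockout groups and overlapped WT_DTH, whose libraries spread widest.

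Bcl6 and Cxcr5 serve both B and T cells. Bcl6 (ENSMUSG00000022508) had 56.4, 55.3 and 69.0 CPM in KO_DTH, 56.6, 48.2 and 42.1 in KO_se, 62.1, 61.7 and 65.9 in WT_DTH and 35.1, 31.2 and 42.8 in WT_se. All 3 WT_DTH libraries exceeded all 3 WT_se libraries, and in the order WT_DTH, KO_DTH, KO_se and WT_se each group overlapped the next. Cxcr5 (ENSMUSG00000047880) had 96.7, 111 and 125 CPM in KO_DTH, 130, 147 and 107 in KO_se, 113, 99.5 and 128 in WT_DTH and 97.4, 70.3 and 85.1 in WT_se. WT_se was below KO_se and WT_DTH in all libraries, while the other 3 groups overlapped. Il21 (ENSMUSG00000027718), the helper cytokine, was scarce, with 0.478, 1.25 and 0.723 CPM in KO_DTH, 0.965, 1.27 and 1.05 in KO_se, 0.796, 0.734 and 1.14 in WT_DTH and 0.0864, 0.321 and 0.500 in WT_se. These WT_se values stand on 3 to 21 counts a library, against 24 to 65 counts in the other 9, so counting error alone is large there.

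Set per kilobase of exon, with exon lengths from GENCODE M21, the order of the genes could be compared. Cxcr5 was first in every group, at 33.3 ± 4.30 CPM per kilobase in KO_DTH, 38.4 ± 6.04 in KO_se, 34.0 ± 4.33 in WT_DTH and 25.3 ± 4.07 in WT_se (SD, n = 3 each). Il21 was last in every group, at 0.155 ± 0.075, 0.208 ± 0.03, 0.169 ± 0.0418 and 0.0575 ± 0.0395 CPM per kilobase in KO_DTH, KO_se, WT_DTH and WT_se. Bcl6 and Fas stood next to Cxcr5 in all 4 groups, and in KO_se, at 7.31 ± 1.09 and 7.79 ± 1.05 CPM per kilobase, they did not differ beyond their spread. Rgs13 followed at 5.66 ± 0.268 CPM per kilobase in KO_se. Gcsam, Mybl1 and S1pr2 came next in KO_se at 1.87 ± 0.462, 1.67 ± 0.652 and 1.39 ± 0.184, and these spreads overlapped.

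The first comparison asks how loss of miR-451a bears on the node after sensitization alone. Mybl1 and Cxcr5 were higher in KO_se than in WT_se, and no gene of the 8 was lower. Mybl1 averaged 9.04 ± 3.52 CPM in KO_se and 2.42 ± 1.48 in WT_se (SD, n = 3 each), a log2 fold change of 1.89 ± 0.42 (SE; edgeR quasi-likelihood test, adjusted p = 0.0232). Cxcr5 averaged 128 ± 20.1 CPM in KO_se and 84.3 ± 13.6 in WT_se, a log2 fold change of 0.60 ± 0.15 (adjusted p = 0.0352). Of all genes tested, 5.17% passed in this comparison, 3.76% higher and 1.4% lower, against 2 of the 8 here. The median log2 fold change of the 8 genes was 1.25, and that of all genes −0.01.

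The other 6 genes had positive log2 fold changes that missed the threshold. Gcsam had 1.85 ± 0.55 (adjusted p = 0.0719), Rgs13 1.68 ± 0.49 (adjusted p = 0.0664) and Il21 1.83 ± 0.56 (adjusted p = 0.0804). Those of S1pr2, Fas and Bcl6 were 0.81 ± 0.30, 0.51 ± 0.19 and 0.43 ± 0.13 (adjusted p = 0.137, 0.134 and 0.0809). In 7 of the 8 genes, Bcl6 being the exception, all KO_se libraries exceeded all WT_se libraries, which held for 15.1% of all genes, while 12.9% lay apart in the other direction. The call for Mybl1 was lost without KO_se library 1 (1.53, adjusted p = 0.0921), WT_se library 1 (1.70, adjusted p = 0.091) or WT_se library 2 (1.63, adjusted p = 0.0699). That for Cxcr5 was lost without KO_se library 1 (adjusted p = 0.092), KO_se library 2 (0.137), WT_se library 2 (0.0984) or WT_se library 3 (0.0894). Over all 21 alternative fits, described below, Mybl1 passed in 17 and Cxcr5 in 13.

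Some other germinal centre B cell genes were also higher in the sensitized knockout. Of 16 such genes 5 were higher, none lower and 11 not called, while 9 lay apart higher and 2 lower. Their median log2 fold change was 0.59, near the 0.57 of the 12 mature B cell genes. A shift of that size was thus not particular to germinal centre genes. Cd83, a surface molecule of activated B cells, had 0.79 ± 0.15 (adjusted p = 0.0118), and Irf8, a transcription factor of germinal centre B cells, 0.57 ± 0.11 (adjusted p = 0.0131). Spib, a B cell transcription factor, had 0.64 ± 0.16 (adjusted p = 0.0354), and Mef2b, a factor that drives Bcl6 in human B cells, 1.56 ± 0.39 (adjusted p = 0.0369).

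Genes of follicular helper T cells passed in the same comparison at a share near the 5.17% of all genes. Of 16 such genes 1 was higher and none lower, and it was Btla, an inhibitory receptor also found on B cells, at 0.46 ± 0.11 (adjusted p = 0.0369). The median log2 fold change of the 16 genes was 0.28, and that of the 12 T cell genes −0.27. Of the 16 genes 4 lay apart higher and 2 lower. Icos, the costimulatory receptor of these cells, averaged 208 ± 25.6 CPM in KO_se and 168 ± 22.1 in WT_se. Pdcd1, the inhibitory receptor PD-1, averaged 13.8 ± 3.61 CPM in KO_se and 11.3 ± 1.27 in WT_se (SD, n = 3 each). Neither of these 2 receptors passed the test.

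Among 12 ligands, receptors and opposing partners of the 8 genes, 4 were higher and 1 lower in KO_se. Cxcl13, the ligand of Cxcr5, averaged 16.6 ± 5.79 CPM in KO_se and 4.80 ± 1.13 in WT_se (SD, n = 3 each; log2 fold change 1.79 ± 0.47 SE, adjusted p = 0.046). Gpr183, a receptor that draws activated B cells to the follicle's edge, had 0.53 ± 0.12 (adjusted p = 0.0232), and Cd40, the receptor of T cell help, 0.68 ± 0.17 (adjusted p = 0.0424). S1pr1, the receptor for exit from the node, had −0.49 ± 0.10 (adjusted p = 0.0195). Prdm1, the plasma cell regulator opposed by Bcl6, had 0.95 ± 0.25 (adjusted p = 0.0462) and was named after its values were seen.

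Lists of other cell types differed between the same groups. All 10 genes of dividing cells were higher in KO_se, with a summed level of 380 to 474 CPM against 85.2 to 175 in WT_se. Of the 12 mature B cell genes 3 were higher, of the 12 T cell genes 4 were lower, and of the 8 plasma cell genes 5 were higher and 1 lower. The part of dividing cells and plasma cells in the levels of the 8 genes was not tested. With 2 salivary gene components in the model the log2 fold change of Mybl1 was 1.89 ± 0.69 (adjusted p = 0.234) and none of the 8 genes passed.

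**Figure D2:**
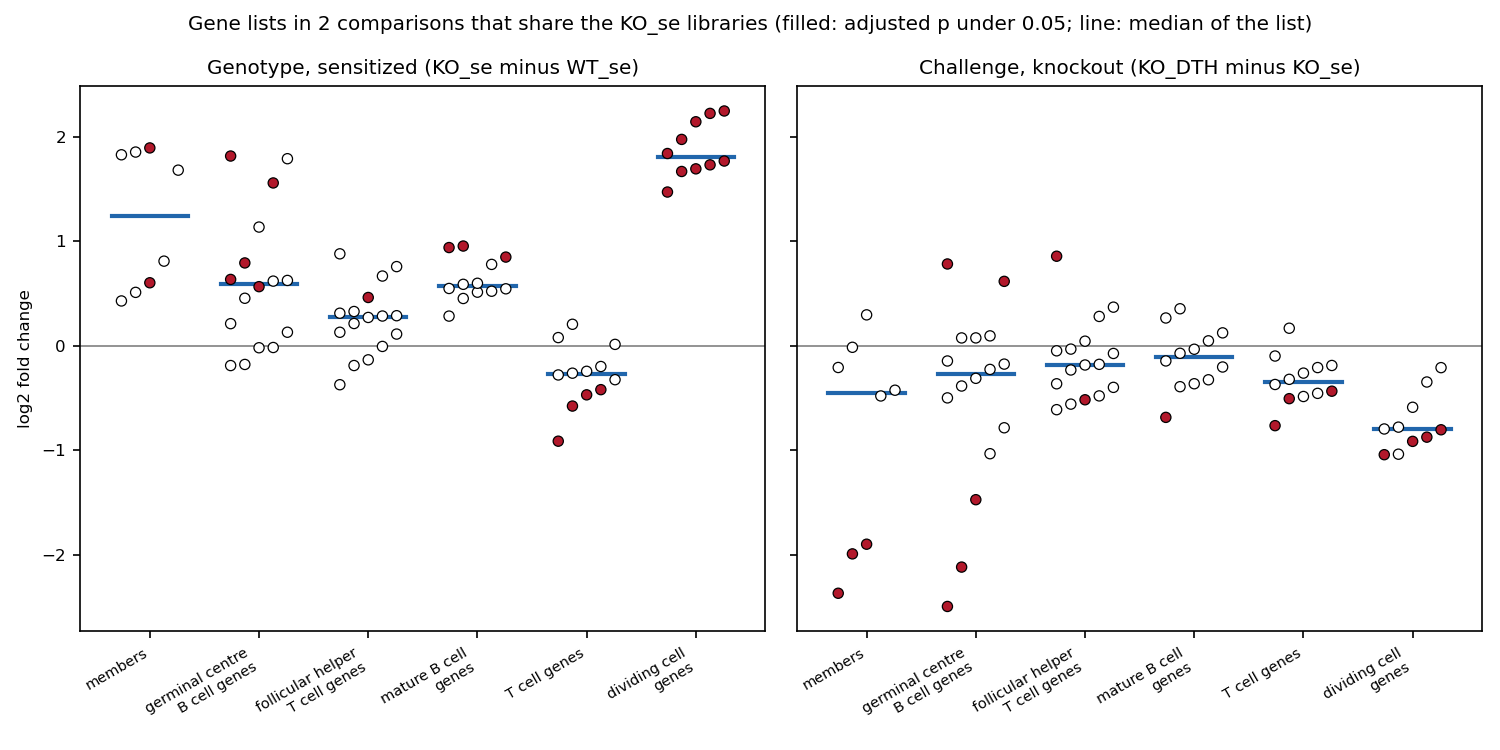
Log2 fold changes (vertical axis) of the 8 genes, labelled members, and of 5 gene lists in KO_se minus WT_se (left) and KO_DTH minus KO_se (right). Each point is a gene, filled where the adjusted p was under 0.05, and the blue line is the median of the list; all 10 genes of dividing cells are filled on the left, and 3 of the 8 genes on the right.

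Set against the B cell genes, the 8 genes differed in how widely they ranged. Cxcr5 had 29.9 to 38.9 counts per 1000 counts of the mature B cell list over the 12 libraries, a 1.3-fold range, and Bcl6 had 12.3 to 20.3, a 1.65-fold range. Mybl1 spanned 0.424 to 3.58, an 8.44-fold range, Gcsam 0.169 to 2.23 and Rgs13 0.251 to 3.38. Rgs13 averaged 0.519 per 1000 in KO_DTH, 2.78 in KO_se, 0.395 in WT_DTH and 1.25 in WT_se.

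**Figure D3:**
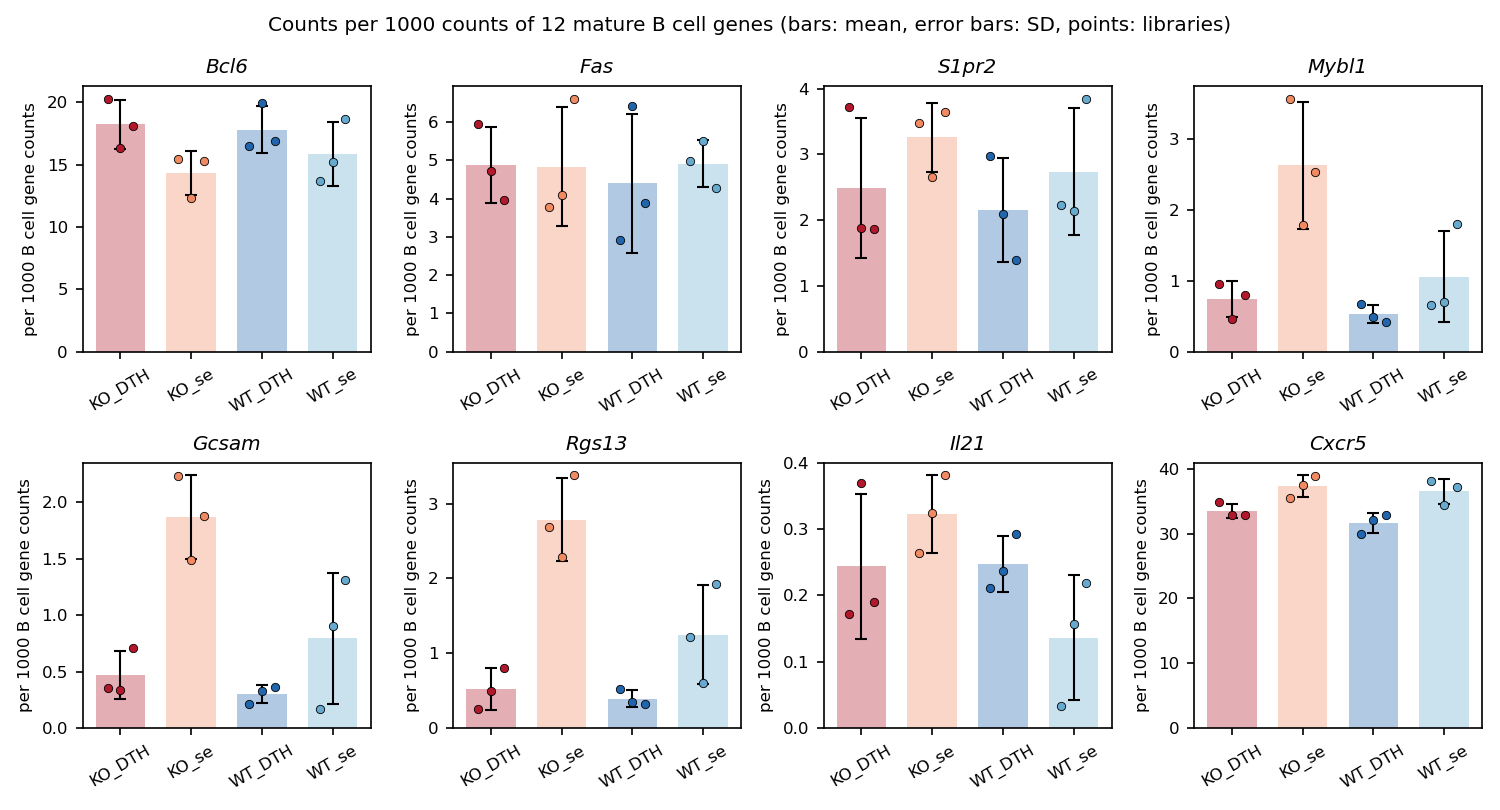
Counts of each of the 8 genes per 1000 counts of the 12 mature B cell genes (vertical axis from 0) in the 12 libraries, by group from left to right KO_DTH, KO_se, WT_DTH and WT_se. Points are libraries, bars the group mean and error bars the SD; Cxcr5 stays between 29.9 and 38.9, and 6 of the 8 genes, all but Bcl6 and Fas, have their highest mean in KO_se.

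With libraries scaled to the mature B cell genes, the median log2 fold change of all genes in KO_se minus WT_se was −0.57. On that scale Mybl1 had 1.31 ± 0.42 (adjusted p = 0.0355) and was the one gene of the 8 to pass. Cxcr5 had 0.03 ± 0.14 (adjusted p = 0.89), against 0.60 ± 0.15 with TMM scaling. Relative to T cell genes, Il21 averaged 0.457 counts per 1000 in KO_DTH, 0.495 in KO_se, 0.504 in WT_DTH and 0.11 in WT_se.

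The second comparison asks what changed after challenge in the knockout, harvest day included. Rgs13, Mybl1 and Gcsam were lower in KO_DTH than in KO_se, and no gene of the 8 was higher. Rgs13 averaged 1.83 ± 1.20 CPM in KO_DTH and 9.37 ± 0.444 in KO_se (SD, n = 3 each), a log2 fold change of −2.37 ± 0.50 (SE, adjusted p = 0.0108). Mybl1 averaged 2.42 ± 0.764 CPM in KO_DTH and 9.04 ± 3.52 in KO_se, a log2 fold change of −1.90 ± 0.42 (adjusted p = 0.0136). Gcsam averaged 1.62 ± 0.962 CPM in KO_DTH and 6.40 ± 1.58 in KO_se, a log2 fold change of −1.99 ± 0.56 (adjusted p = 0.041). Of all genes, 9.67% passed in this comparison, 5.81% higher and 3.86% lower, against 3 of the 8 that were lower. The same 3 genes had groups that did not overlap, which held in this direction for 14.9% of all genes, and 15.1% lay apart in the other.

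The other 5 genes did not pass. Bcl6 had a log2 fold change of 0.30 ± 0.13 (adjusted p = 0.189), S1pr2 −0.48 ± 0.30 (adjusted p = 0.37) and Il21 −0.42 ± 0.53 (adjusted p = 0.7). Cxcr5 had −0.21 ± 0.15 (adjusted p = 0.44) and Fas −0.01 ± 0.19 (adjusted p = 0.979). Rgs13 passed without any 1 of the 12 libraries, and missed the threshold with the salivary components as covariates (−2.60 ± 0.68, adjusted p = 0.0746), as did Mybl1 (−1.99 ± 0.68, adjusted p = 0.169) and Gcsam (−2.13 ± 0.88, adjusted p = 0.262). Mybl1 missed it without KO_se library 1 (−1.53, adjusted p = 0.0577) or KO_DTH library 2 (−1.67, adjusted p = 0.0559). Gcsam missed it in 5 of the 6 fits without a library of these groups, the exception being KO_DTH library 3, and in 3 of the 6 without another library. Its adjusted p without KO_se libraries 1, 2 and 3 was 0.115, 0.0872 and 0.0666, and without KO_DTH libraries 1 and 2 it was 0.147 and 0.129. Without WT_se library 2, WT_DTH library 2 or WT_DTH library 3 it was 0.0554, 0.0567 and 0.0506. Over all 21 alternative fits Rgs13 passed in 20, Mybl1 in 18 and Gcsam in 10.

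This comparison shares the KO_se libraries with the one between the sensitized groups, so a high value there enters both. Of the 16 germinal centre B cell genes 3 were lower and 2 higher. Nuggc, a GTPase of germinal centre B cells, averaged 1.62 ± 1.01 CPM in KO_DTH and 9.10 ± 3.07 in KO_se (SD, n = 3 each; −2.49 ± 0.55 SE, adjusted p = 0.0131). Irf8 was higher at 0.62 ± 0.11 (adjusted p = 0.0041), and so was Plxnb2, a plexin through which germinal centre B cells meet helper T cells, at 0.78 ± 0.19 (adjusted p = 0.0188). Mef2b was also lower, at −1.47 ± 0.38 (adjusted p = 0.0303), and was named after its values were seen.

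Of the 16 follicular helper T cell genes 1 was higher and 1 lower, a share near the 9.67% of all genes. Stat3, which carries the signals of IL-6 and IL-21, had 0.86 ± 0.09 (adjusted p = 8.36e-05), and Tox, a nuclear factor of these cells, −0.52 ± 0.11 (adjusted p = 0.0112). None of the 12 partner genes passed. Lower were 1 of the 12 mature B cell genes, 3 of the 12 T cell genes and 4 of the 10 genes of dividing cells. The genes of dividing cells summed to 235 to 258 CPM in KO_DTH and 380 to 474 in KO_se. All 10 type I interferon response genes were higher, with a mean summed level of 1130 CPM in KO_DTH and 164 in KO_se. The part of these lists in the result was not tested. With libraries scaled to the mature B cell genes Rgs13 had −2.42 (adjusted p = 0.00609), Mybl1 −1.83 (adjusted p = 0.0295) and Gcsam −1.99 (adjusted p = 0.0748).

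The third comparison asks the same of challenge in wild type. Bcl6 was higher in WT_DTH than in WT_se, and no other gene of the 8 passed. Bcl6 averaged 63.2 ± 2.33 CPM in WT_DTH and 36.3 ± 5.93 in WT_se (SD, n = 3 each), a log2 fold change of 0.80 ± 0.13 (SE, adjusted p = 0.00152). Of all genes, 18.7% passed, 9.77% higher and 8.97% lower, so 1 of 8 is near the background. Bcl6 passed without any 1 of the 12 libraries. Bcl6, Il21 and Cxcr5 had groups that did not overlap, higher in WT_DTH, which held for 17.6% of all genes, while 17.9% lay apart in the other direction.

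Il21 had a log2 fold change of 1.54 ± 0.56 (adjusted p = 0.0776), Cxcr5 0.43 ± 0.15 (adjusted p = 0.0607) and Fas 0.44 ± 0.19 (adjusted p = 0.128). S1pr2, Mybl1, Gcsam and Rgs13 had 0.29 ± 0.30, −0.35 ± 0.42, −0.72 ± 0.56 and −1.04 ± 0.50, with adjusted p-values of 0.59, 0.638, 0.434 and 0.175. Mature B cell genes rose in the same comparison, 8 of 12 being higher and none lower, while all 12 T cell genes were lower. All 13 mitochondrially encoded genes were lower, at 4.37 to 5.84% of counts in WT_DTH and 13.8 to 19.1% in WT_se. All 10 type I interferon response genes were higher, with a mean summed level of 1050 CPM in WT_DTH and 217 in WT_se. The part of these lists in the values of the 8 genes was not tested. Scaled to the mature B cell genes, where the median of all genes was −0.65, Bcl6 had 0.16 ± 0.18 (adjusted p = 0.462). On that scale Rgs13 had −1.66 (adjusted p = 0.0115) and Gcsam −1.40 (adjusted p = 0.0491), and both were lower. So were 7457 of the 20034 genes tested, so 2 of 8 is not above the background. With the salivary components as covariates Bcl6 had 0.69 ± 0.26 (adjusted p = 0.282).

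Of the 16 germinal centre B cell genes 2 were higher and 1 lower after challenge in wild type, a share near the 18.7% of all genes. Irf8 had 1.19 ± 0.11 (adjusted p = 4.4e-05), Plxnb2 0.81 ± 0.19 (adjusted p = 0.00936) and Nuggc −1.71 ± 0.56 (adjusted p = 0.0487). Of the 16 follicular helper T cell genes 2 were higher and 4 lower, among them Stat3 at 1.03 ± 0.09 (adjusted p = 2.5e-05) and Tox at −0.49 ± 0.11 (adjusted p = 0.00884). Cd40lg, the ligand through which T cells help, had −1.09 ± 0.26 (adjusted p = 0.012), and Tcf7, a T cell transcription factor that favours the helper fate, −0.48 ± 0.12 (adjusted p = 0.0143). Partner genes were higher in 3 of 12 and lower in 2. Prdm1 had 1.70 ± 0.25 (adjusted p = 0.000748), Cd40 1.09 ± 0.17 (adjusted p = 0.00117), S1pr1 −0.55 ± 0.10 (adjusted p = 0.00323) and Ccr7, a receptor of the T cell zone, −0.52 ± 0.12 (adjusted p = 0.00954).

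**Figure D4:**
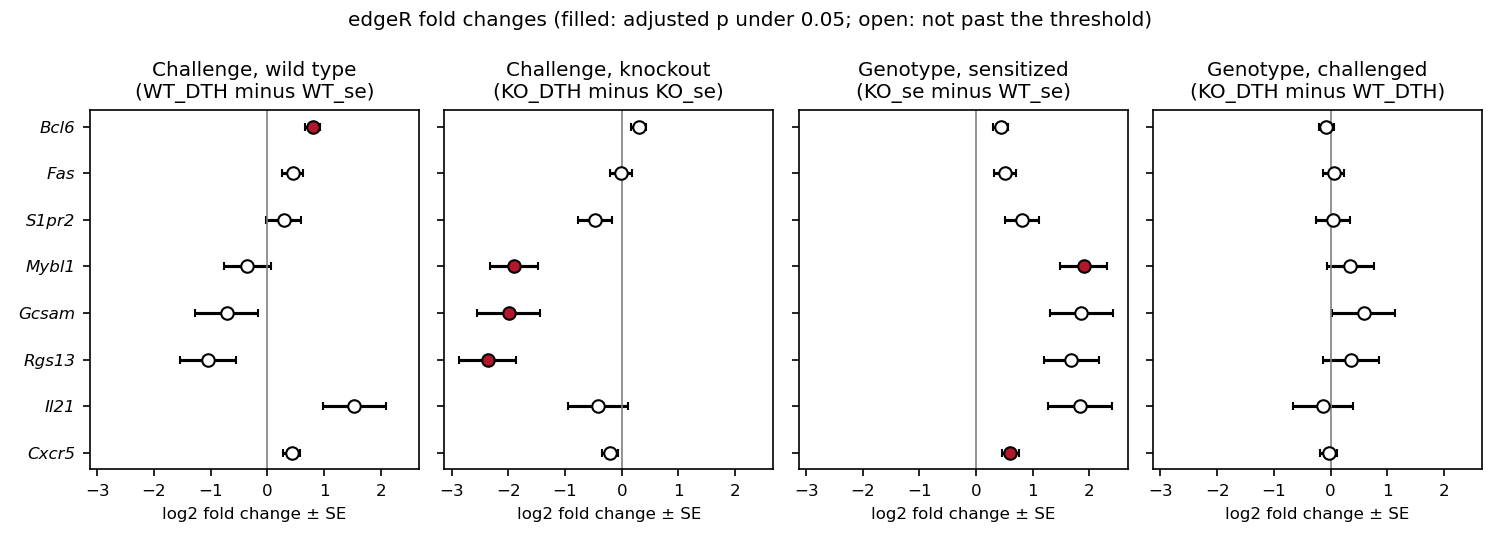
Log2 fold changes of the 8 genes (dots) with their SE (lines) on the horizontal axis, with 1 panel for each of 4 comparisons of groups. Filled dots had an adjusted p under 0.05: Bcl6 in WT_DTH minus WT_se, Rgs13, Mybl1 and Gcsam in KO_DTH minus KO_se, Mybl1 and Cxcr5 in KO_se minus WT_se, and none in KO_DTH minus WT_DTH.

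The fourth comparison asks how the genotypes differed once challenged. None of the 8 genes passed between KO_DTH and WT_DTH, with log2 fold changes of −0.13 ± 0.53 for Il21 to 0.58 ± 0.56 for Gcsam. The median was 0.05, that of all genes 0.01, and 0.599% of all genes passed, 0.514% higher and 0.0849% lower. No gene of the 8 reached an unadjusted p under 0.05 with edgeR (the smallest was 0.313, for Gcsam), against 2832 of the 20034 genes tested. None of the 8 passed with the DESeq2 Wald test, and the groups of all 8 overlapped. Of all genes, 10.1% lay apart with KO_DTH higher and 8.64% with KO_DTH lower. None of the 16 germinal centre B cell genes, the 16 follicular helper genes or the 12 partner genes passed either. These misses do not show equal levels: the SE of Rgs13, Mybl1 and Gcsam was 0.50, 0.42 and 0.56 on the log2 scale.

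The last comparison tests whether challenge acted differently in the 2 genotypes, as the challenge effect in the knockout minus that in wild type. None of the 8 genes passed, and 2.11% of all genes did, 1.67% with a positive and 0.439% with a negative difference. All 8 differences were negative, and 4 of them were under 0.05 before adjustment, as were 3215 of the 20034 genes tested. Cxcr5 had −0.64 ± 0.21 (edgeR adjusted p = 0.139), Bcl6 −0.50 ± 0.19 (adjusted p = 0.192), Mybl1 −1.54 ± 0.59 (adjusted p = 0.203) and Il21 −1.96 ± 0.77 (adjusted p = 0.22). The DESeq2 Wald test called none of the 8. Scaled to the mature B cell genes, where the median of all genes moved to 0.67, the difference was positive for Bcl6 (0.18), Fas (0.17) and Cxcr5 (0.05). A change that passed in 1 genotype only, such as that of Rgs13 or Bcl6, was thus not shown to differ between genotypes.

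The genes most like each of the 8 over the 12 libraries were found by Pearson's r of log2 CPM among 13714 other genes. The libraries share their groups, so these r values are a description. Rgs13 was nearest to Nuggc (r = 0.96), and Mybl1 to Pafah1b3 (r = 0.92) and the DNA damage kinase gene Atr (0.92). Gcsam was nearest to Ccdc18 (r = 0.96). Cxcr5 was nearest to Cr2, the complement receptor of B cells (r = 0.96), and had Pou2af1, a B cell coactivator, among its nearest 3 (r = 0.94). Bcl6 was nearest to Neu1 (r = 0.95), Fas to Hsp90aa1 (0.91), S1pr2 to Sgo2a (0.84) and Il21 to Slc43a3 (0.92). Among the 8, the highest r values were those of Mybl1 with Gcsam (0.86) and with Rgs13 (0.85), S1pr2 with Mybl1 (0.81) and Gcsam with Rgs13 (0.76). These values carry the differences between groups. Over deviations from the group means the same pairs had 0.49, 0.50, 0.81 and 0.24, while Bcl6 with Mybl1 had 0.80 and Gcsam with Il21 0.72.

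Exons of Bcl6, Cxcr5 and Il21 overlap those of Gm37419, Bcl9l and Gm12534 on the opposite strand in GENCODE M21. Whether the counting used strand is not given in the sources used here, so reads of these pairs cannot be told apart if it did not.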

How the data were processed

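Total RNA of 12 mandibular lymph node libraries, 3 in each of 4 groups, was sequenced with a directional kit, per the labels. The authors deposited 1 table of estimated counts per Ensembl gene ID, all of them whole numbers, so none needed rounding. Per the submitters' processing notes, fastp 0.23.2, HISAT2 2.2.1, StringTie 2.2.1 and the build GRCm39 were used. Groups came from the labels. Symbols, exon lengths and overlaps came from GENCODE M21, and upstream sequences from RefSeq, both on GRCm38.

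Testing used the quasi-likelihood F test of edgeR 4.0.16 in R 4.3.3, after filterByExpr at 10 counts and TMM scaling, with 1 model with a mean per group over all 12 libraries and 8 residual degrees of freedom. P-values are two-sided and adjusted by Benjamini-Hochberg over all 20034 genes tested, with a threshold of 0.05. Fold changes are log2 ± SE. The SE was derived as the absolute log2 fold change divided by the square root of the F statistic. The fit was tested on simulated data. Libraries of 1 group differed by more than counting noise, with a chi-squared per degree of freedom of 37.6 to 299. The genes and lists were chosen with earlier results of these data known. The 8 genes are named throughout. From the lists of germinal centre B cell, follicular helper T cell and partner genes, up to 4 genes per comparison of smallest p among those that passed are named, except 1 gene that is not reported here, and Icos and Pdcd1 were added after their values were seen. For likeness, the nearest 3 genes with a mean of at least 50 counts and a symbol were found. Alternatives were other scalings and filters, DESeq2 1.42.0, fits to the compared groups alone, a replicate block, 2 components of the salivary genes as covariates and leaving out each library. The sequences and motifs were handled in Python 3.11.15 with pandas 2.3.3, and figures drawn with matplotlib 3.10.9.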

Additional observations from a re-analysis of the deposited data

How the results depend on the processing

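Over the 8 genes and 5 comparisons, 827 log2 fold changes from alternatives were set beside the reported values: 748 kept direction and side of the threshold, 29 lost the call, 19 gained it and 31 changed sign. In WT_DTH minus WT_se 1 gene passed as reported, 2 (both lower) with B cell gene scaling, 3 with the DESeq2 Wald test, 0 with salivary covariates and 1 to 2 with a library left out. In KO_DTH minus KO_se 3 passed, 0 with salivary covariates and 1 to 3 with a library left out. In KO_se minus WT_se 2 passed, 1 with B cell gene scaling, 5 with the Wald test, 0 with salivary covariates and 0 to 3 with a library left out. In KO_DTH minus WT_DTH and in the difference of challenge effects 0 passed in every alternative. The causes of these changes were not tested.

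Pairs of libraries from different groups were compared by Pearson's r over all genes tested. The values were log2 CPM as deviations from each gene's group mean, so r near 0 does not mean unlike expression. Over all groups, the 18 pairs of libraries that share a replicate number had r of −0.0984 to 0.1407, with a median of 0.0031. The 36 pairs of different number had −0.0802 to 0.119, with a median of −0.004, and 1 pair of each kind was over 0.1. Between genotypes, same-number pairs had 0.0429, 0.0465 and 0.1407 when sensitized and 0.0697, 0.0667 and 0.0781 when challenged. Each was above all different-number pairs of the same 2 groups, so a pairing of the genotypes by number was not excluded. With a replicate block 1, 3, 2, 0 and 0 of the 8 genes passed in WT_DTH minus WT_se, KO_DTH minus KO_se, KO_se minus WT_se, KO_DTH minus WT_DTH and the difference. In KO_se minus WT_se the block gave Gcsam 2.14 (adjusted p = 0.0466) and Cxcr5 0.61 (adjusted p = 0.0576).

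With B cell gene scaling the sign changed for Fas (−0.16), S1pr2 (−0.35) and Cxcr5 (−0.21) in WT_DTH minus WT_se, Fas (0.0161) in KO_DTH minus KO_se, Bcl6 (−0.15) and Fas (−0.025) in KO_se minus WT_se, Bcl6 (0.0346) and Cxcr5 (0.0801) in KO_DTH minus WT_DTH, and Bcl6 (0.18), Fas (0.17) and Cxcr5 (0.0497) in the difference. With salivary covariates it changed for Cxcr5 in KO_DTH minus KO_se (0.088) and, in KO_DTH minus WT_DTH, for Bcl6 (0.0673), Fas (−0.17), S1pr2 (−0.0737), Rgs13 (−0.016) and Cxcr5 (0.37). With a library left out it changed in WT_DTH minus WT_se for Mybl1 (−0.62 to 0.28) and S1pr2 (−0.0399 to 0.61), in KO_DTH minus KO_se for Fas (−0.11 to 0.0852), and in KO_DTH minus WT_DTH for Fas (−0.17 to 0.25), S1pr2 (−0.21 to 0.38), Il21 (−0.57 to 0.12), Cxcr5 (−0.16 to 0.0372), Gcsam (−0.0523 to 0.82) and Rgs13 (−0.29 to 0.73).

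Over all genes, WT_DTH minus WT_se gave 3755 calls, 4557 with the Wald test, 114 with salivary covariates and 7795 with B cell gene scaling. KO_DTH minus KO_se gave 1938, 2984 with the Wald test, 471 with salivary covariates, 398 with B cell gene scaling and 1039 to 2035 with a library left out. KO_se minus WT_se gave 1035, 2301 with the Wald test, 191 with salivary covariates, 4834 with B cell gene scaling and 369 to 1100 with a library left out. KO_DTH minus WT_DTH gave 120, 932 with the Wald test, 64 without a filter, 38 with the block, 1 with salivary covariates and 14 to 471 with a library left out. The difference gave 422, 1240 with the Wald test, 267 without a filter, 128 with the block, 1107 with B cell gene scaling, 0 with salivary covariates and 0 to 830 with a library left out. B cell gene scaling put 4.34% of the calls of WT_DTH minus WT_se higher, against 52.1% as reported, and 3.14% of those of KO_se minus WT_se, against 72.9%. Counts of Il21 and of Gcsam in WT_se, down to 3 and 15 a library, limit what can be said of them.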
